A study of Homo sapiens with 20 samples.

Results

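The 39 genes described here encode the folding machinery of the endoplasmic reticulum (ER), the sensors of the unfolded protein response, and the proteins of ER-associated degradation (ERAD), translocation and vesicle budding. They were listed by symbol for their roles in the ER, and each symbol matched 1 of the 58233 gene identifiers that were counted. They comprise 9 chaperones and co-chaperones, 10 lectin chaperones, disulfide isomerases and prolyl isomerases, 3 sensors and stress proteins with 1 transcription factor, 8 ERAD genes, and 8 genes of translocation, glycosylation and vesicle coats. RNA was sequenced from 4 lung cancer cell lines transduced with lentivirus for Cas9 and an sgRNA, as 20 libraries in 10 conditions with 2 libraries per condition. HCC366 (adenosquamous), NCI-H1650 (adenocarcinoma) and NCI-H196 (labelled a variant small cell line) were classed by the study as dependent on ADAR1, the RNA-editing enzyme encoded by *ADAR*, and A549 (adenocarcinoma) as not dependent without interferon. Each line carried sgRNAs against *ADAR* (sg1 and sg2, *ADAR* KO) or against *GFP* (sg1 and sg2), a gene human cells do not have. HCC366, NCI-H1650 and NCI-H196 cells were left untreated, and their RNA was taken 5 days after transduction. A549 cells with each sgRNA were kept for 24 h with vehicle or with 10 ng/mL of interferon-β (IFN-β), a cytokine that induces antiviral genes. Transduced cells were selected with an antibiotic. Within a condition, 1 library came from each sgRNA, and nothing in the labels says more about separate cultures, so p-values measure only the spread between these libraries.

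Proteins that enter the ER are folded there by chaperones, glycosylated and joined by disulfide bonds, and those that fail are retrotranslocated and degraded by ERAD. When unfolded proteins accumulate, 3 sensors respond. IRE1 (encoded by *ERN1*) splices the mRNA of the transcription factor XBP1, ATF6 is cleaved to release a transcription factor, and PERK (*EIF2AK3*) phosphorylates eIF2α. PKR (*EIF2AK2*), a cytoplasmic kinase activated by double-stranded RNA, phosphorylates the same residue of eIF2α, so both kinases raise ATF4 and its targets, whereas ER chaperones are typical targets of ATF6 and XBP1. The comparisons therefore ask whether ER folding genes moved with the ATF4 targets after *ADAR* KO. Gene counts cannot separate spliced from unspliced *XBP1* mRNA, nor show cleavage of ATF6 or phosphorylation of either kinase.

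Reads on genes ranged from 62679 in NCI-H196 GFP sg2 to 19520189, with a median of 6411279, and the 39 genes took 0.581% to 1.33% of them. Levels are given as CPM, the reads of a gene relative to the size of its library, scaled by the TMM method within each line. In NCI-H196 GFP sg2, 1 read was worth 14.7 CPM. In HCC366 ADAR sg2, 85.6% of alignments were not unique, against 22.5% to 59.1% in the other 19 libraries, and GC content and length accounted for 59.2% of the variance of its log2 ratios to the mean of the line. That share was also high in HCC366 GFP sg2 (44.4%) and NCI-H1650 ADAR sg1 (41.7%), and at most 26.3% in every other library. The targeted gene, *ADAR*, had a negative log2 fold change in every comparison of the sgRNAs. In HCC366 its value was -0.84 and missed the threshold (adjusted p = 0.208 by edgeR's quasi-likelihood test), and it fell in the other comparisons, with values of -1.29 in NCI-H1650, -0.41 in NCI-H196, -1.08 in A549 with vehicle and -0.60 in A549 with IFN-β. *KRT8* was between 1108 and 3197 CPM in HCC366, NCI-H1650 and A549, and *KRT18* between 634 and 1263 CPM. *EPCAM*, *KRT19* and *CDH1*, also epithelial, were at least 103, 409 and 770 CPM in NCI-H1650. They reached at most 0.51, 1.33 and 50.2 CPM in A549, and 2.0, 0 and 10.6 CPM in HCC366. The squamous markers *KRT5*, *TP63* and *KRT6A* reached at most 1.94, 4.37 and 0.65 CPM in HCC366. *KRT6A* was between 63.7 and 79.1 CPM in NCI-H1650 and *TP63* between 15.7 and 58.6 CPM in NCI-H196. Elsewhere these markers reached at most 4.485 CPM. In NCI-H196 *KRT8* was at most 48.3 CPM, the neuroendocrine factors *NEUROD1* and *INSM1* had no reads, and the fibroblast gene *COL1A1* reached 3182 CPM. Leukocyte markers reached at most 3.05 CPM in any library.

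Many of these genes are known targets of ATF6 and XBP1 through the ER stress response element (ERSE), so its letters were looked for in their promoters. RefSeq promoters (GRCh38.p14, 250 bases before to 50 bases after the start site) were at hand for 34 of the 39 genes. The ERSE, searched on both strands as CCAAT and CCACG with 9 bases of any kind between them, occurred in 7 of the 34 (20.6%) and in 25 of all 27305 genes with a promoter in the table (0.0916%). It did not occur in the promoters of 6 ATF4 targets. At the share over all promoters no match is likely among 6 genes, so this absence does not set them apart. The 8 sites are shown in the orientation of the element with 10 flanking bases on each side, and capitals mark the fixed letters of the element. The coordinates are those of the element itself.
HSPA5, chr9:125241391-125241409, minus strand: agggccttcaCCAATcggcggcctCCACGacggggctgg
HSP90B1 first site, chr12:103930216-103930234, plus strand: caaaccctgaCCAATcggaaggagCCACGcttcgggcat
HSP90B1 second site, chr12:103930321-103930339, minus strand: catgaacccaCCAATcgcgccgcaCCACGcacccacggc
CRELD2, chr22:49918554-49918572, minus strand: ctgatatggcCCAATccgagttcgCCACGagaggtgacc
CALR, chr19:12938384-12938402, minus strand: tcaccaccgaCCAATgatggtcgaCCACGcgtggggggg
CANX, chr5:179698778-179698796, plus strand: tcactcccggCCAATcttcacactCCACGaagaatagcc
PDIA6, chr2:10812853-10812871, minus strand: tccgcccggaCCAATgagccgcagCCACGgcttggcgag
XBP1, chr22:28800603-28800621, minus strand: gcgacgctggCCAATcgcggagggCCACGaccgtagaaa

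The letters TGATGNAA, which the ATF4-binding C/EBP-ATF response element holds, were searched in the same way. They occurred in 1 of the 34 promoters (2.94%), that of *HERPUD1*, in 2 of 6 promoters of ATF4 targets, and in 4.46% of all promoters. The 3 sites are printed because *HERPUD1* is the only ERAD gene that passed the test in more than 1 of the ADAR1-dependent lines, and *ATF3* and *ASNS* are ATF4 targets that the study used. Capitals mark the fixed letters. The *HERPUD1* promoter also holds ATTGGGCCACG, parts of the ERSE in another arrangement, which the ERSE search could not match. The letters TGACGTGG, a core of the unfolded protein response element, were searched too. They occurred in 3 of the 34 promoters (8.82%), those of *HYOU1*, *TXNDC5* and *TXNDC11*, and in 0.927% of all promoters. A match describes a sequence and does not show binding.
HERPUD1, chr16:56931966-56931973, minus strand: gggcacgggcTGATGcAAcccgccgcgt
ATF3, chr1:212565216-212565223, plus strand: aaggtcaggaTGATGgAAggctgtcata
ASNS, chr7:97872469-97872476, minus strand: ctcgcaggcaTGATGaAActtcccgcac

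In control cells a few chaperones were far more abundant than the sensors. Per kilobase of the canonical transcript, *CALR* (calreticulin, a lectin chaperone) was at 298 CPM per kb in A549 with vehicle and at 509 CPM per kb in HCC366, and by the mean it ranked first among the 39 genes in all 4 lines. In NCI-H196, whose means include the shallow GFP sg2, it was nearly level with *HSP90B1* (509.4 against 508.6 CPM per kb). *HSP90B1* (GRP94, the ER member of the HSP90 family) lay between 204 and 509 CPM per kb, and *HSPA5* (BiP, the main ER chaperone and ATPase) between 158 and 261 CPM per kb. *ERN1* lay between 1.75 CPM per kb in A549 and 8.004 CPM per kb in NCI-H196, and *XBP1* between 30.0 and 157 CPM per kb. Not all chaperones were abundant, since *DNAJB9* (ERdj4, a BiP co-chaperone) lay between 3.16 and 20.6 CPM per kb, with a mean below that of the sensor gene *ATF6* in all 4 lines. The means were close in NCI-H1650 (7.955 against 8.238 CPM per kb). *DERL3*, an ERAD gene of secretory cells, ranked last in all 4 lines, between 0.160 and 1.90 CPM per kb. It had too few reads to be tested in HCC366, NCI-H1650 and A549, so 38 of the 39 genes were tested there and 39 in NCI-H196.

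*ERN1*, the gene of the IRE1 sensor (GRCh37 chromosome 17, 62116440 to 62208179), was higher after *ADAR* KO in all 3 ADAR1-dependent lines. In HCC366 it was at 20.1 and 26.1 CPM in the GFP libraries and at 103 and 219 CPM in the ADAR libraries. In NCI-H1650 it rose from 29.8 and 33.4 CPM to 42.5 and 45.1 CPM. In NCI-H196 the GFP libraries held 82.4 and 43.98 CPM, the latter from 3 reads (95% Poisson interval 9.07 to 129 CPM, counting error only), and the ADAR libraries 170 and 202 CPM. Both ADAR libraries lay above both GFP libraries in each line. For HCC366 the log2 fold change was 2.78 (95% interval 1.80 to 3.77, adjusted p = 0.0323), 0.47 in NCI-H1650 (0.18 to 0.77, adjusted p = 0.0319) and 1.24 in NCI-H196 (1.03 to 1.46, adjusted p = 5.93e-27), by edgeR. The call in HCC366 was lost without either GFP library (adjusted p up to 0.282). In NCI-H1650 it was kept in 1 of 4 fits that left out a library, and in NCI-H196 in 2 of 4, with log2 fold changes of 0.40 to 0.52 and 1.12 to 2.15.

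*XBP1* (GRCh37 chromosome 22, 29190543 to 29196585), the transcription factor whose mRNA IRE1 splices, also lay higher in both ADAR libraries of each line. In HCC366 its level was 126 and 124 CPM with GFP sgRNAs and 294 and 437 CPM with ADAR sgRNAs. In NCI-H1650 it was 175 and 153 CPM against 284 and 312 CPM, and in NCI-H196 it was 298 and 264 CPM against 425 and 474 CPM. The groups did not overlap in any of the 3 lines. The log2 fold change was 0.86 in NCI-H1650 (SE 0.10, adjusted p = 1.36e-08) and 0.62 in NCI-H196 (SE 0.11, adjusted p = 3.03e-07). In HCC366 it was 1.55 (SE 0.33) and missed the threshold (adjusted p = 0.071). The call in NCI-H1650 held in each of the 4 fits that left out a library, with values from 0.74 to 0.97, whereas that in NCI-H196 held in 1 of 4 (0.56 to 0.80), the fit without GFP sg2.

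*HERPUD1*, whose product carries ERAD components to the ligase complex, was also higher in both ADAR libraries of each of these lines. Its CPM were 110 and 140 with GFP sgRNAs and 220.5 and 241 with ADAR sgRNAs in HCC366. They were 95.3 and 86.9 against 118 and 123 in NCI-H1650, and 87.7 and 73.3 against 107 and 124 in NCI-H196. The 73.3 CPM in NCI-H196 GFP sg2 came from 5 reads. Its 95% Poisson interval (23.8 to 171 CPM, counting error only) held both ADAR values. The log2 fold change was 0.40 in NCI-H1650 (SE 0.11, adjusted p = 0.0134) and 0.46 in NCI-H196 (SE 0.11, adjusted p = 6.12e-04). In HCC366 it was 0.88 (SE 0.32, adjusted p = 0.208). The calls in NCI-H1650 and NCI-H196 each held in 1 of the 4 fits that left out a library.

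**Figure D1:**
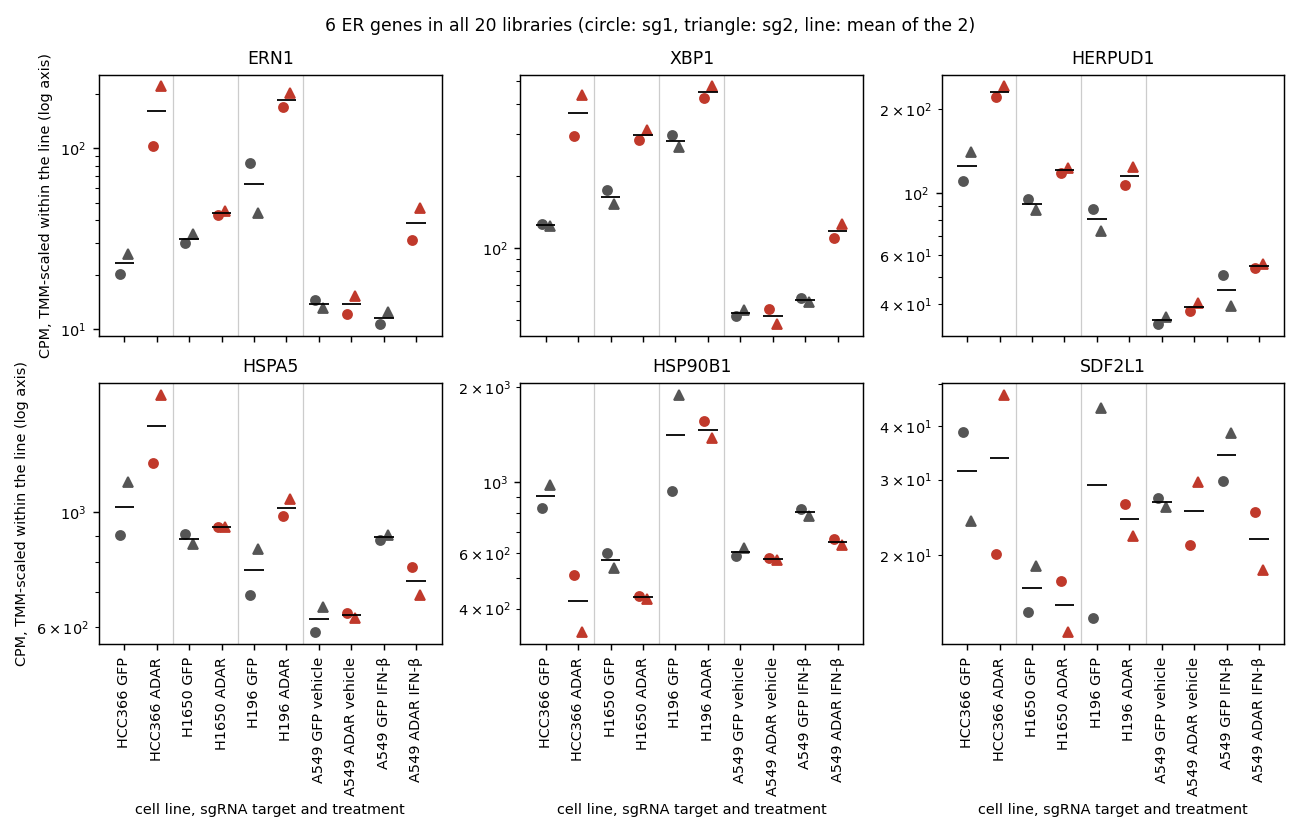
TMM-scaled CPM within each line (vertical log axis) of *ERN1*, *XBP1*, *HERPUD1*, *HSPA5*, *HSP90B1* and *SDF2L1* in all 20 libraries, by cell line, sgRNA target and treatment. Circles are sg1, triangles sg2, grey *GFP*, red *ADAR*, and lines the mean of 2 libraries. *ERN1* and *XBP1* are higher in both ADAR libraries of HCC366, NCI-H1650, NCI-H196 and IFN-β-treated A549, while *HSP90B1* and *SDF2L1* do not follow them. *HSPA5* is higher in both ADAR libraries of HCC366, NCI-H1650 and NCI-H196, and lower in both of IFN-β-treated A549.

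Across the 12 libraries of the 3 lines, with the line as a covariate, these 3 genes were the members that passed the test. *XBP1* had a log2 fold change of 1.00 (SE 0.15, adjusted p = 9.43e-04), *ERN1* of 1.43 (SE 0.28, adjusted p = 0.00779) and *HERPUD1* of 0.55 (SE 0.14, adjusted p = 0.0258). So 3 of 39 members were higher and 0 lower, beside 4.28% of all 16538 genes tested that were higher and 1.02% that were lower (5.3% in either direction). *ERN1* and *XBP1* passed in all 12 fits that left out a library, and *HERPUD1* in 6 of 12. Without HCC366 ADAR sg1, 5 members passed (3 higher, 2 lower), and without HCC366 ADAR sg2, 6 (3 higher, 3 lower). Of the chaperones, *HSPA5* had a value of 0.33 (adjusted p = 0.123), *DNAJB9* of 0.33 (adjusted p = 0.261), *SDF2L1* (part of the BiP chaperone complex) of 0.15 (adjusted p = 0.722) and *HSP90B1* of -0.47 (adjusted p = 0.145). *DNAJB9* was called in 2 of 8 alternative fits, both with the correction for GC content and length, where its value reached 0.65. *ATF6* (-0.15), *CALR* (-0.09) and *PDIA4* (a disulfide isomerase, -0.13) had intervals that spanned 0. The median over the 39 members was -0.09, beside -0.01 over all genes tested.

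The size of the *ERN1* change differed among the 3 lines (edgeR F-test on the line by target terms, adjusted p = 0.0263), the only member of 39 to pass, beside 0.701% of all genes tested. The change in HCC366 exceeded that in NCI-H1650 by 2.26 (log2, 95% interval 1.38 to 3.15) and that in NCI-H196 by 1.48 (0.55 to 2.41). NCI-H196 exceeded NCI-H1650 by 0.78 (-0.10 to 1.67). The F-test for *ERN1* passed without HCC366 ADAR sg1, without HCC366 ADAR sg2 and without NCI-H196 GFP sg2, and missed the threshold in the other 9 of the 12 fits that left out a library (adjusted p up to 0.255). Without HCC366 ADAR sg1, 17 members passed. For *HSP90B1*, whose fold changes had opposite signs in the lines, the difference did not pass (adjusted p = 0.148), nor did it for *XBP1* (adjusted p = 0.389).

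In HCC366 the remaining members did not pass the test. Of the 38 tested, 1 (*ERN1*) was higher and 0 were lower, beside 1.2% and 0.0449% of all genes. Among the chaperones, *HSPA5* was at 902.5 and 1145 CPM with GFP sgRNAs and at 1248 and 1688 CPM with ADAR sgRNAs, a log2 fold change of 0.52 (SE 0.31, adjusted p = 0.389). *HSP90B1* went the other way, from 829 and 984 CPM to 510 and 336 CPM (-1.10, SE 0.32, adjusted p = 0.149). Neither pair of groups overlapped. *HSP90B1* was called in 5 of 8 alternative fits and in 2 of 4 that left out a library, with values from -1.45 to -0.80. *DNAJB9* (0.68, SE 0.42) was called in 2 of 8 alternative fits, those with the correction for GC content and length, where it reached 1.46. *DNAJB9*, *SDF2L1* (0.15, SE 0.48), *ATF6* (-0.12, SE 0.34), *CALR* (-0.07, SE 0.29) and *PDIA4* (-0.29, SE 0.29) had intervals that spanned 0. Both ADAR libraries lay above both GFP libraries for 6 of the 38 members (25.1% of all genes) and below them for 14 (27.3%). The count of calls turned on single libraries: 24 members (10 higher, 14 lower) passed without ADAR sg1, which leaves the ADAR library with 85.6% of alignments not unique. It was 4 (3 higher, 1 lower) without ADAR sg2 and 0 without either GFP library. Correcting each library for GC content and gene length gave 5.

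In NCI-H1650, 3 of 38 members were higher and 4 lower after *ADAR* KO, beside 6.18% and 2.42% of all genes tested (8.6% in either direction). The higher ones were *ERN1*, *XBP1* and *HERPUD1*. The lower ones were *HSP90B1* and 3 genes of protein entry. *HSP90B1* was at 599 and 537 CPM with GFP sgRNAs and at 439 and 429 CPM with ADAR sgRNAs, a log2 fold change of -0.39 (SE 0.10, adjusted p = 0.00737). *STT3A*, a catalytic subunit of the oligosaccharyltransferase, fell from 315 and 283 CPM to 227 and 230 CPM (-0.39, adjusted p = 0.00895). *SSR1*, a subunit of the translocon-associated protein complex, fell from 147 and 128.5 CPM to 102 and 105.5 CPM (-0.41, adjusted p = 0.00989). *SPCS3*, a subunit of the signal peptidase, fell from 125 and 119 CPM to 96.4 and 93.1 CPM (-0.37, adjusted p = 0.0246), but this call held in 1 of 4 fits that left out a library and in 1 of 7 other fits, and the value was -0.21 with the correction for GC content and length. In all 4 genes the ADAR libraries lay below both GFP libraries.

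*HSPA5* differed little in NCI-H1650, with 908 and 868 CPM against 936 and 938 CPM (0.08, 95% interval -0.12 to 0.27, adjusted p = 0.714). Its ADAR libraries still lay above both GFP libraries, as they did in HCC366 and NCI-H196. *DNAJB9* (-0.01), *SDF2L1* (-0.12), *ATF6* (-0.03), *CALR* (-0.22) and *PDIA4* (-0.17) did not pass. Both ADAR libraries lay above both GFP libraries for 9 of the 38 members (26.2% of all genes) and below them for 16 (24.3%). Over the 38 members 11 log2 fold changes were positive, and their median was -0.14, beside 0.01 over all genes. Leaving out GFP sg1 left 1 call, that of *XBP1*, and leaving out GFP sg2 or ADAR sg2 left 4. DESeq2 made 3 calls among the members.

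In NCI-H196 the chaperones were among the genes called higher, but the calls rested on GFP sg1 as the control, and GFP sg2, the shallowest library, lay above both ADAR libraries for several of them. With all 4 libraries, 14 of 39 members were higher and 4 lower, beside 10.3% and 7.5% of all genes tested (17.8% in either direction). The higher ones held 7 of the 9 chaperones and co-chaperones: *HYOU1* (GRP170, a nucleotide exchange factor of BiP, 0.74), *SDF2L1* (0.65), *CRELD2* (an ER-resident disulfide isomerase, 0.61), *DNAJB9* (0.53), *HSPA5* (0.53), *HSP90B1* (0.42) and, named after its value was seen, *DNAJB11* (another BiP co-chaperone, 0.43). *CALR* (0.34, adjusted p = 0.0214) and *PDIA4* (0.33, adjusted p = 0.0157) were also higher. The 4 lower ones were *SSR1* (-0.42), *FKBP14* (a prolyl isomerase, -0.38), *DERL1* (an ERAD channel protein, -0.38) and *SRP54* (a subunit of the signal recognition particle, -0.35). *ATF6* did not pass (-0.09, adjusted p = 0.628).

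The values per library of NCI-H196 show where the 2 controls differ. *HSPA5* was at 692 and 850 CPM with GFP sgRNAs and at 982 and 1060 CPM with ADAR sgRNAs, so the groups did not overlap, but the interval of GFP sg2 (58 reads, 646 to 1099 CPM) held both ADAR values. *HSP90B1* was at 939 CPM in GFP sg1, 1891 CPM in GFP sg2 (129 reads, 1579 to 2247 CPM) and 1559 and 1378 CPM in the ADAR libraries. GFP sg2 was thus the highest of the 4. The same held for *HYOU1*, with 179 and 396 CPM against 332 and 299 CPM, for *CALR*, with 705 and 1231 CPM against 996 and 951 CPM, and for *PDIA4*, with 360 and 542 CPM against 513 and 441 CPM. *SDF2L1* had 14.3 and 43.98 CPM (3 reads in GFP sg2) against 26.4 and 22.2 CPM. *DNAJB11* had 63.3 and 161 CPM (11 reads in GFP sg2) against 75.1 and 90.7 CPM, so its mean CPM was lower with ADAR sgRNAs although the fit, which weights libraries by depth, gave a positive value. *FKBP14* had 71.3 and 43.98 CPM (3 reads in GFP sg2) against 66.0 and 51.4 CPM, so its groups overlapped and its mean CPM was slightly higher with ADAR sgRNAs although the fitted value was negative. Over the 39 members both ADAR libraries were above both GFP libraries for 9 (25.6% of all genes) and below them for 4 (15%).

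Without GFP sg1, so that GFP sg2 was the only control, 0 of the members passed (41 of all genes did), and *HSP90B1* (-0.37), *HYOU1* (-0.35), *CALR* (-0.33), *PDIA4* (-0.21) and *SDF2L1* (-0.94) changed sign. Without GFP sg2, 20 members passed (15 higher, 5 lower), against the single control GFP sg1. Without ADAR sg1, 1 passed, and without ADAR sg2, 0. DESeq2 called 0 of the members and 11 genes in all. The sign of *HSPA5*, *DNAJB9*, *CRELD2*, *ERN1*, *XBP1* and *HERPUD1* was positive in each of these fits. The genes called lower were no steadier. With 1 library left out *DERL1* reached 0.37, *FKBP14* 0.30 and *SSR1* 0.08, and *SRP54* came as near to 0 as -0.0075. The ADAR and GFP libraries overlapped for each of them.

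**Figure D2:**
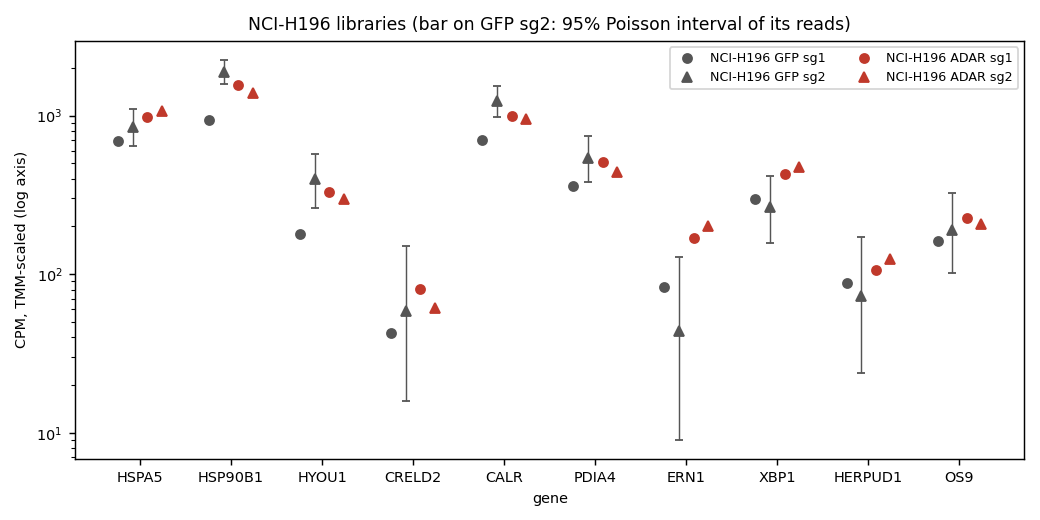
TMM-scaled CPM (vertical log axis) of 10 genes in the 4 NCI-H196 libraries, *GFP* in grey and *ADAR* in red, with the 95% Poisson interval of the reads on GFP sg2 as a bar. For *HSP90B1*, *HYOU1*, *CALR* and *PDIA4* the GFP sg2 triangle stands above both ADAR points, whereas for *ERN1*, *XBP1* and *HERPUD1* both GFP points stand below them. The bar of *HERPUD1* nevertheless reaches above both ADAR points.

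In A549 with vehicle none of the 38 members tested passed in either direction, beside 0.0324% of all genes that were higher and 0.0906% that were lower. By edgeR 1 member was under 0.05 before adjustment, and DESeq2 called 0. *HSPA5* was at 585 and 655 CPM with GFP sgRNAs and at 639 and 624 CPM with ADAR sgRNAs (log2 fold change 0.03, 95% interval -0.17 to 0.23). *ERN1* was at 14.5 and 13.2 CPM against 12.2 and 15.3 CPM (0.004, -0.42 to 0.43), and *XBP1* at 52.1 and 55.3 CPM against 55.6 and 48.2 CPM (-0.05, -0.30 to 0.19). The groups overlapped in all 3. *HSP90B1* (-0.07), *DNAJB9* (-0.08), *SDF2L1* (-0.06), *HERPUD1* (0.16), *ATF6* (-0.03), *CALR* (-0.05) and *PDIA4* (-0.10) had intervals that spanned 0. Both ADAR libraries lay above both GFP libraries for 3 members (18.8% of all genes) and below them for 8 (17.8%). The 38 values lay between -0.32 and 0.26.

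With IFN-β, *ADAR* KO raised 3 members in A549 and lowered 10, beside 10.8% of all genes that were higher and 6.19% that were lower. The 3 higher ones were sensors and their factor. *ERN1* rose from 10.7 and 12.5 CPM with GFP sgRNAs to 31.0 and 46.6 CPM with ADAR sgRNAs, a log2 fold change of 1.75 (SE 0.19, adjusted p = 4.64e-08). *XBP1* rose from 61.8 and 59.7 CPM to 111 and 126 CPM (0.97, SE 0.11, adjusted p = 2.55e-07). *ATF6*, the third sensor gene, rose from 58.9 and 46.0 CPM to 70.5 and 69.7 CPM (0.42, SE 0.12, adjusted p = 0.0177). No group overlapped in these 3 genes. *HERPUD1* (0.29, adjusted p = 0.133) and *DNAJB9* (0.32, adjusted p = 0.402) did not pass.

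The 10 lower members in IFN-β-treated A549 cells were 5 of the 9 chaperones and co-chaperones and 5 of the 10 lectin chaperones and isomerases. *HSPA5* was at 883 and 905 CPM with GFP sgRNAs and at 783 and 692 CPM with ADAR sgRNAs (log2 fold change -0.28, adjusted p = 0.0469). *HSP90B1* was at 827 and 785 CPM against 662 and 634 CPM (-0.32, adjusted p = 0.0187). *CALR* went from 671 and 746.5 CPM to 556 and 511 CPM (-0.41, adjusted p = 0.00294). All ADAR values were below all GFP values. *PDIA4* went from 416 and 466 CPM to 358 and 320 CPM (-0.38, adjusted p = 0.00633). *CRELD2* fell from 33.3 and 41.6 CPM to 24.1 and 21.4 CPM (-0.74, adjusted p = 0.00119) and *SDF2L1* from 29.7 and 38.6 CPM to 25.2 and 18.4 CPM (-0.67, adjusted p = 0.00684). These values do not overlap either. *PPIB* (cyclophilin B, a prolyl isomerase) fell by 0.39 (adjusted p = 0.0302). *TXNDC5*, a disulfide isomerase at a low level, fell from 7.97 and 14.03 CPM to 6.20 and 4.69 CPM (-1.07, adjusted p = 0.0055). It shares 2658 exonic bases with a read-through transcript on the same strand, so its count is uncertain. The other 2 called lower, named after their values were seen, were *HYOU1* (-0.37) and *P4HB* (the subunit PDI, -0.31).

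Both ADAR libraries lay above both GFP libraries for 6 of the 38 members (28.2% of all genes) and below them for 16 (27.5%). How many members were lower depended on the IFN-β libraries. Without ADAR IFN-β sg2, 2 members passed, *ERN1* and *XBP1*, and none was lower. Without GFP IFN-β sg2, 5 passed (2 higher, 3 lower). The calls of *ERN1* and *XBP1* held in all 8 fits that left out an A549 library (log2 fold changes 1.41 to 2.00 and 0.87 to 1.06). Those of *HSP90B1*, *CALR* and *CRELD2* held in 7 of 8, and that of *HSPA5* in 2 of 8 (-0.37 to -0.19). Without ADAR IFN-β sg2, *PPIB* was at -0.15 (adjusted p = 0.626) and *SDF2L1* at -0.44, and without ADAR IFN-β sg1 *PPIB* was at -0.63. *PPIB* was called in 3 of 7 other fits. Without GFP IFN-β sg2, *ATF6* was at 0.25 and *TXNDC5* at -0.58, and neither passed. In a fit of all 20 libraries 2 members were higher and 2 lower.

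IFN-β raised 3 chaperones and 2 isomerase or lectin genes in control A549 cells. With GFP sgRNAs, 5 of 38 members were higher and 0 lower, beside 4.39% and 1.31% of all genes (5.7% in either direction). *HSPA5* rose from 585 and 655 CPM with vehicle to 883 and 905 CPM with IFN-β (0.53, adjusted p = 3.31e-04). *HSP90B1* rose from 587 and 620 CPM to 827 and 785 CPM (0.42, adjusted p = 0.00337), and *CRELD2* from 29.6 and 22.5 CPM to 33.3 and 41.6 CPM (0.55, adjusted p = 0.0299). No group overlapped. *CALR* rose from 569 and 563 CPM (0.32, adjusted p = 0.0376) and *PDIA4* from 337.5 and 333 CPM (0.40, adjusted p = 0.00864) to the levels given above. *SDF2L1* (0.37), *HERPUD1* (0.35), *XBP1* (0.17), *DNAJB9* (0.09), *ATF6* (-0.05) and *ERN1* (-0.24) did not pass. Both IFN-β libraries lay above both vehicle libraries for 17 of the 38 members (21.7% of all genes) and below them for 1 (20.3%). Without GFP vehicle sg1, 1 member passed, without GFP vehicle sg2, 2 (*CRELD2*, at 0.35, was not among them), and in a fit of all 20 libraries, 0. This comparison and that of *ADAR* KO with IFN-β share the same 2 GFP IFN-β libraries, so high values there raise one and lower the other.

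With *ADAR* sgRNAs, IFN-β raised *ERN1*, *XBP1* and *ATF6*, and no chaperone passed the test as higher. Of 38 members, 7 were higher and 2 lower, beside 15.5% and 9.04% of all genes, so the share higher was near that of all genes. *ERN1* rose from 12.2 and 15.3 CPM to 31.0 and 46.6 CPM (1.51, adjusted p = 4.00e-07) and *XBP1* from 55.6 and 48.2 CPM to 111 and 126 CPM (1.20, adjusted p = 2.49e-09). *HERPUD1* (0.48, adjusted p = 0.00829), *ATF6* (0.40, adjusted p = 0.0191), *SEC24D* (a COPII coat subunit, 0.41), *SRP54* (0.35) and *OS9* (an ERAD lectin, 0.30) also rose. *TXNDC5* (-1.02) and *CRELD2* (-0.44, adjusted p = 0.0427) fell. *HSPA5* (0.22, adjusted p = 0.0979), *HSP90B1* (0.17), *DNAJB9* (0.49), *PDIA4* (0.11), *CALR* (-0.04) and *SDF2L1* (-0.24) did not pass. Both IFN-β libraries lay above both vehicle libraries for 13 members (33.3% of all genes) and below them for 8 (30.9%). Without ADAR vehicle sg1, ADAR vehicle sg2 or ADAR IFN-β sg2, 4, 3 and 2 members passed.

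**Figure D3:**
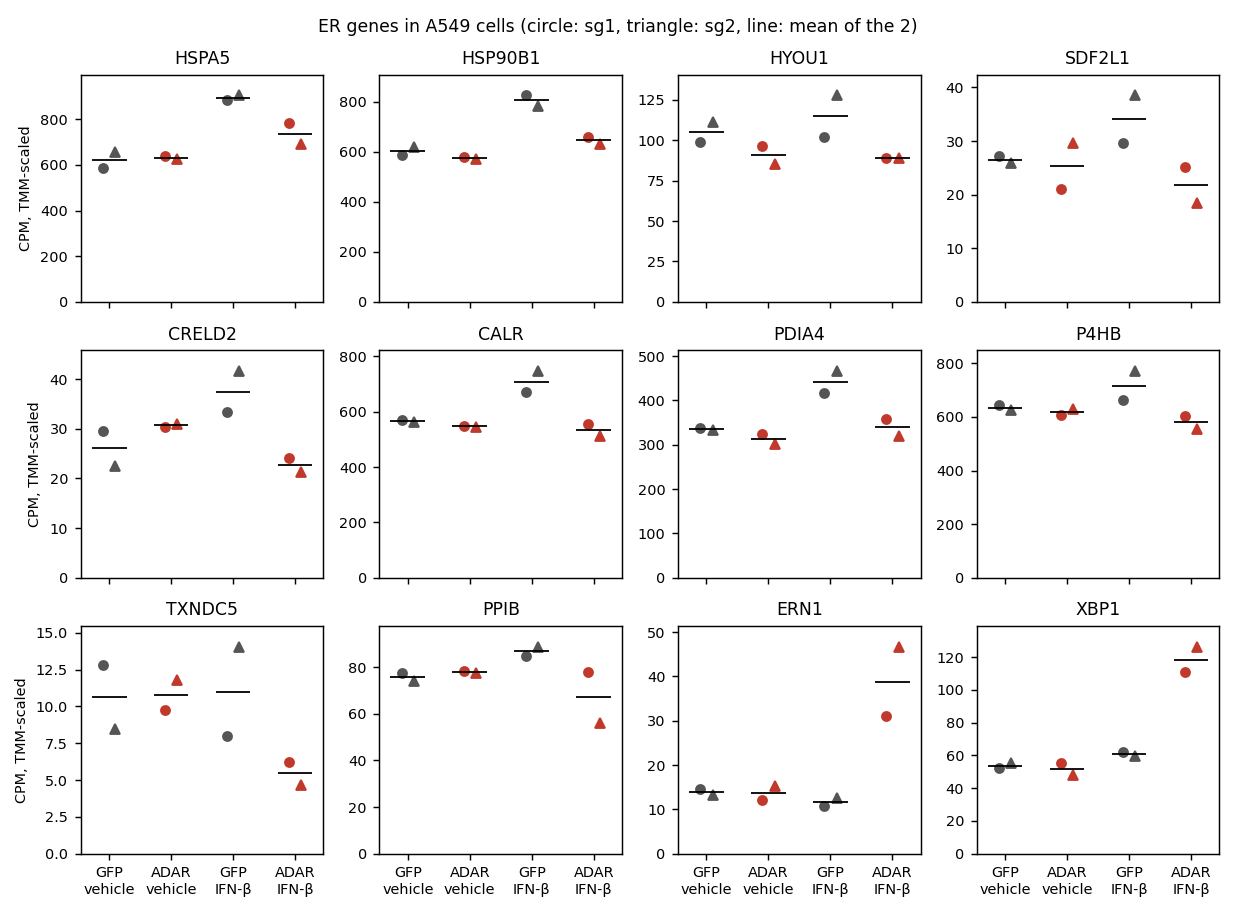
TMM-scaled CPM (vertical axes from 0) of 12 genes in the 8 A549 libraries, by sgRNA target and treatment. Circles are sg1, triangles sg2, and lines the mean of 2 libraries. *ERN1* and *XBP1* are high only in the ADAR IFN-β libraries, and the 10 chaperone and isomerase genes are lower there than in the GFP IFN-β libraries.

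Whether the effect of *ADAR* KO differed between IFN-β and vehicle was tested by the interaction term, which passed for 3 of 38 members, beside 5.05% of all genes. *ERN1* (1.75, SE 0.28, adjusted p = 1.17e-04) and *XBP1* (1.02, SE 0.17, adjusted p = 1.55e-04) were the 2 positive ones, beside 4.07% of all genes, and *CRELD2* (-0.99, SE 0.22, adjusted p = 0.00627) the negative one, beside 0.977%. For the other chaperones the difference was not called. It was -0.30 for *HSPA5* (95% interval -0.59 to -0.02, adjusted p = 0.225), -0.24 for *HSP90B1* (-0.52 to 0.03, adjusted p = 0.328), -0.62 for *SDF2L1* (-1.13 to -0.11, adjusted p = 0.167), -0.36 for *CALR* (-0.64 to -0.09, adjusted p = 0.127) and -0.28 for *PDIA4* (adjusted p = 0.270). *ATF6* (0.46, adjusted p = 0.152), *DNAJB9* (0.40) and *HERPUD1* (0.13) did not pass either. The *ERN1* and *XBP1* calls held in all 8 fits that left out a library and that of *CRELD2* in 6 of 8. Leaving out GFP IFN-β sg1 gave 7 calls and leaving out ADAR IFN-β sg1 gave 5.

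The ATF4 targets passed the test in the comparisons in which most ER genes did not. The 7 that the study names when it describes these samples (*ASNS*, *ATF3*, *DDIT3*, *GADD45A*, *GADD45B*, *PPP1R15A* and *TRIB3*), which are therefore not independent evidence of their direction, were called higher in 6 of 7 cases in HCC366 and in 7 of 7 in NCI-H1650, NCI-H196 and A549 with IFN-β. Their median log2 fold change was 3.64 (range 1.31 to 4.15), 1.16 (0.53 to 1.91), 0.99 (0.43 to 1.57) and 2.85 (0.71 to 4.57), beside -0.10, -0.14, 0.10 and -0.10 for the ER genes. In A549 with vehicle 0 of the 7 passed (median 0.32). Of 20 other ATF4 and integrated stress response genes, 2 of 16 tested were higher in HCC366 and 9 of 19 in NCI-H1650. In NCI-H196 14 of 20 were higher and 1 was lower. In A549 0 of 19 were higher with vehicle and 7 of 19 with IFN-β. Of all genes tested, 1.2%, 6.18% and 10.3% were higher in HCC366, NCI-H1650 and NCI-H196. The shares were 0.0324% and 10.8% in A549 with vehicle and with IFN-β. How far either list depended on single libraries of NCI-H196 was not tested. The mRNAs of both eIF2α kinases were measured as well. *EIF2AK3* had log2 fold changes of 0.09, -0.03, 0.01, 0.26 and 0.07 in HCC366, NCI-H1650, NCI-H196, A549 with vehicle and A549 with IFN-β, and *EIF2AK2* of -0.49, -0.33, -0.11, -0.04 and -0.01, none of which passed. IFN-β raised *EIF2AK2* by 2.53 with GFP sgRNAs and by 2.55 with ADAR sgRNAs.

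**Figure D4:**
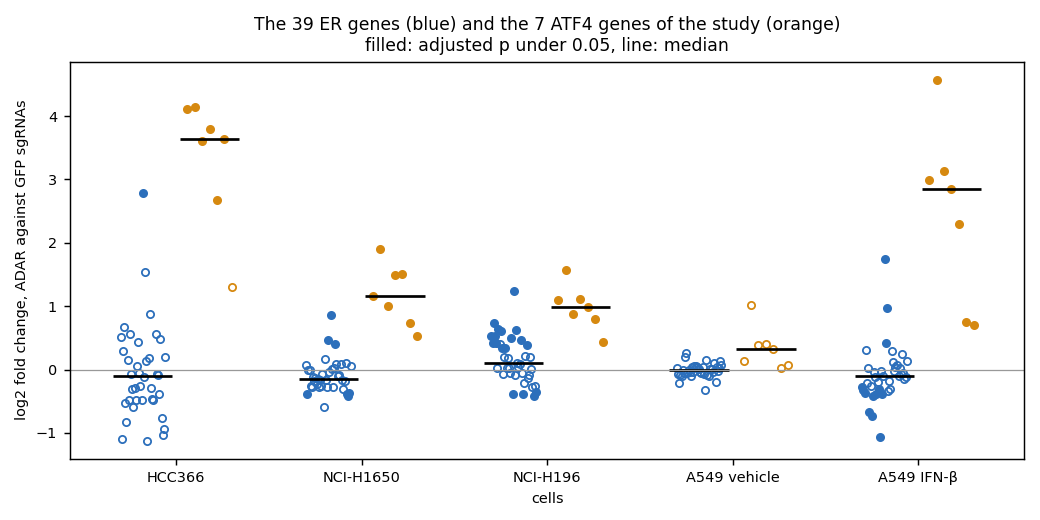
Log2 fold change of *ADAR* against *GFP* sgRNAs (vertical axis) for the 39 ER genes (blue) and the 7 ATF4 targets of the study (orange) in 5 comparisons, filled where the adjusted p was under 0.05, with the median as a line. The ATF4 targets stand above nearly all ER genes in HCC366, NCI-H1650 and IFN-β-treated A549, and the blue points above 1 there are *ERN1* and, in HCC366, *XBP1*.

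Other genes of the same ER pathways were mostly not called, and in NCI-H1650 and NCI-H196 most of those called were lower. Of all genes tested, 1.2% were higher and 0.0449% lower in HCC366, and 6.18% and 2.42% in NCI-H1650. The shares were 10.3% and 7.5% in NCI-H196, and 10.8% and 6.19% in A549 with IFN-β. Of 25 further folding and retention genes, 23 were tested in HCC366, 24 in NCI-H1650 and NCI-H196, and 25 in A549. Of those tested, 0 were called in HCC366, 3 were lower in NCI-H1650, 6 were lower and 1 higher in NCI-H196, and 1 was lower in A549 with IFN-β. Of 31 further translocation and COPII genes, the counts were 0 in HCC366, 2 lower in NCI-H1650, 7 lower and 1 higher in NCI-H196, and 2 higher in A549 with IFN-β. Of 19 further ERAD genes, 2 were lower in NCI-H196, 1 was higher and 1 lower in A549 with IFN-β, and 0 were called in HCC366 and NCI-H1650. Of 9 further sensors and stress transcription factors, 7 were tested in HCC366 and A549 and 8 in NCI-H1650 and NCI-H196. Among them 1 (*CREB3*, 0.34) was higher in A549 with IFN-β and 0 were called in the 3 ADAR1-dependent lines. In NCI-H196, where 7.5% of all genes were lower, the calls among the folding and translocation genes were thus mainly decreases. Calls among the members in this line changed with the GFP library used as control. For the further genes this dependence was not tested. None of these genes passed in A549 with vehicle.

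**Figure D5:**
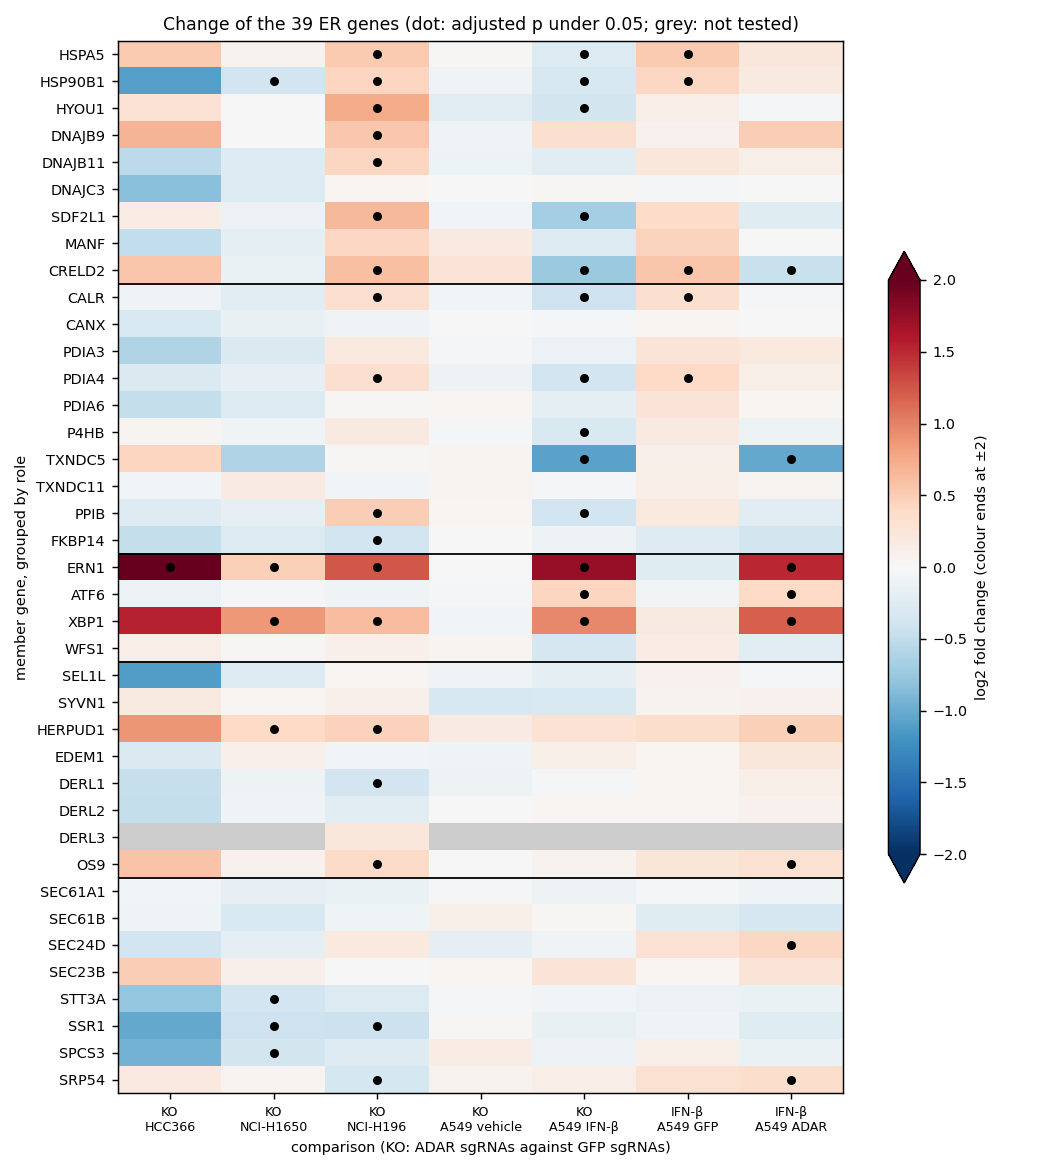
Log2 fold change (colour, ends at 2 and -2) of the 39 genes, in rows by role, in 5 comparisons of *ADAR* KO and 2 of IFN-β, in columns. Dots mark an adjusted p under 0.05 and grey marks genes with too few reads. *ERN1* and *XBP1* are red in all columns of *ADAR* KO but A549 with vehicle, and most of the chaperone rows turn from red in NCI-H196 to blue in A549 with IFN-β.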

How the data were processed

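The authors made directional libraries after ribosomal RNA depletion. Their alignment used STAR and hg19, and HTSeq gave the number of reads on each gene. The deposited values are raw counts per Ensembl gene, without normalization. The strand setting and annotation release are not given in the sources used here, and non-unique alignments were not counted, so genes that overlap others are uncertain.

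Symbols came from a list of gene names by Ensembl identifier and matched 55727 identifiers with 97.4% of the counts. RefSeq synonyms were used only for symbols not found there. Positions and transcript lengths came from GENCODE v44 lifted to GRCh37, promoters from RefSeq. The 39 members and the 6 comparison lists were chosen with earlier results of these data known. Counts were tested in R 4.3.3 with edgeR 4.0.16 (TMM, filterByExpr by condition, quasi-likelihood F-test, Benjamini-Hochberg over all genes tested, threshold 0.05, prior count 0.125), with limma 3.58.1 loaded by edgeR. HCC366, NCI-H1650 and NCI-H196 each had a fit, the 8 A549 libraries shared one, and a fit of 12 libraries had the line as covariate. Standard errors came from the fitted information and the moderated dispersion. The same code was tested on simulated counts. Alternatives were DESeq2 1.42.0, its size factors, no filter, a replicate block, offsets for GC content and length, all 20 libraries in one fit, and leaving out each library. A crossed block in HCC366 and leaving out HCC366 ADAR sg2 with NCI-H196 GFP sg2 were chosen after seeing the data.

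Named in every comparison were *HSPA5*, *HSP90B1*, *DNAJB9*, *SDF2L1*, *HERPUD1*, *XBP1*, *ERN1*, *ATF6*, *CALR* and *PDIA4*, and every member that passed or, above 12, the 6 largest increases and 6 largest decreases. Depth ranged from 62679 to 19520189 reads, and intervals on reads cover counting error only. The sgRNA numbers name different sgRNAs in the 2 targets and were not taken as pairs.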

Additional observations from a re-analysis of the deposited data

Results flagged for a closer look

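The effect of *ADAR* KO differed between IFN-β and vehicle in A549 for 3 members, by the interaction term of edgeR's quasi-likelihood test. The difference of the log2 fold changes was 1.75 for *ERN1* (0.004 with vehicle, 1.75 with IFN-β) and 1.02 for *XBP1* (-0.05 with vehicle, 0.97 with IFN-β). For *CRELD2* it was -0.99, where both ADAR libraries were higher than both GFP libraries with vehicle (30.4 and 31.0 CPM against 29.6 and 22.5 CPM) and lower with IFN-β (24.1 and 21.4 CPM against 33.3 and 41.6 CPM).

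The effect of *ADAR* KO on *ERN1* differed among HCC366, NCI-H1650 and NCI-H196 (adjusted p = 0.0263 by edgeR's F-test on the line by target terms), with log2 fold changes of 2.78, 0.47 and 1.24 in fits of each line. HCC366 ADAR sg2, the library with the most alignments that were not unique, held the highest *ERN1* level of the HCC366 libraries (219 CPM), and the call held without it. The call held in only 3 of the 12 fits that left out a library.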

How the results depend on the processing

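Of 152 alternative counts of members called, 93 stayed within 1.5 times the reported count and 59 did not. Of 1776 values of single members, 1435 kept direction and side of the threshold, 242 lost the call, 48 gained one and 51 changed sign. The causes were not tested. DESeq2 called 2 members in HCC366, 3 of those in NCI-H1650 and 0 of those in NCI-H196. Without the count filter they numbered 3 in HCC366, 10 in NCI-H196, 8 across the dependent lines and 2 for the line difference. With GC and length offsets they numbered 5 in HCC366, 6 across lines and 3 for the line difference. In one fit of all 20 libraries they numbered 11 in HCC366, 1 each in NCI-H1650 and NCI-H196, 4 for *ADAR* KO with IFN-β, 0 and 3 for IFN-β with GFP and ADAR sgRNAs, 1 for the interaction, 11 across lines and 2 for the line difference. Leaving out both HCC366 ADAR sg2 and NCI-H196 GFP sg2, chosen after seeing the data, gave 6 across lines and 6 for the line difference. Leaving out 1 library gave 0 to 24 calls in HCC366, 1 to 9 for NCI-H1650, 0 to 20 for NCI-H196, 0 for A549 with vehicle, 2 to 17 with IFN-β, 1 to 6 and 2 to 13 for IFN-β with GFP and ADAR sgRNAs, 2 to 7 for the interaction, 2 to 6 across lines and 0 to 17 for the line difference.

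When the sgRNA number was a replicate block, 1 member was called in HCC366, 6 for NCI-H1650, 1 for NCI-H196, 0 and 12 in A549 with vehicle and IFN-β, 4 and 8 for IFN-β with GFP and ADAR sgRNAs, 3 for the interaction, 2 across lines and 1 for the line difference. With the block and the offsets the counts were 7 in HCC366, 1 in NCI-H196, 5 across lines and 2 for the line difference. A block for each sgRNA in A549, where vehicle and IFN-β libraries carry the same sgRNA, gave 5, 8 and 4 for IFN-β with GFP sgRNAs, with ADAR sgRNAs and the interaction. Deviations of same-numbered libraries correlated at -0.253 (HCC366), -0.0209 (NCI-H196), -0.0163 (NCI-H1650) and -0.0784 to 0.0368 in A549, so the numbers were not taken as pairs. A crossed block in HCC366, chosen after seeing the data, gave 5.

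These values changed sign. With the offsets, *SDF2L1* was -0.29 and *ATF6* 0.30 in HCC366, *DNAJB9* 0.15 and *ATF6* 0.027 in NCI-H1650, *ATF6* 0.0026 for IFN-β with GFP sgRNAs, *SDF2L1* 0.042 and *CALR* 0.0319 for IFN-β with ADAR sgRNAs, and *SDF2L1* -0.0427 and *ATF6* 0.0291 across lines. With block and offsets these were -0.28 and 0.30 in HCC366, 0.14 and 0.028 in NCI-H1650, 0.0459 and 0.032 for IFN-β with ADAR sgRNAs, -0.13 and 0.0195 across lines, and *FKBP14* was 0.0364 in NCI-H196. *DNAJB9* was 0.0125 in NCI-H1650 in the fit of all libraries, and *CALR* 0.0015 for IFN-β with ADAR sgRNAs without the filter. With 1 library left out, *SDF2L1* ranged from -0.52 to 0.67, *CALR* from -0.23 to 0.0733 and *ATF6* from -0.39 to 0.13 in HCC366. In NCI-H1650 *ATF6* ranged from -0.15 to 0.065, *SDF2L1* from -0.35 to 0.0496 and *DNAJB9* from -0.29 to 0.23. In NCI-H196 *HSP90B1* ranged from -0.37 to 0.62, *SDF2L1* from -0.94 to 0.87, *CALR* from -0.33 to 0.45, *PDIA4* from -0.21 to 0.36, *HYOU1* from -0.35 to 0.78, *SSR1* from -0.45 to 0.0836, *FKBP14* from -0.41 to 0.30 and *DERL1* from -0.41 to 0.37. In A549 with vehicle *HSPA5* ranged from -0.0568 to 0.11, *DNAJB9* from -0.20 to 0.0101, *ERN1* from -0.17 to 0.15, *SDF2L1* from -0.33 to 0.16, *XBP1* from -0.16 to 0.0491 and *ATF6* from -0.12 to 0.0583. *DNAJB9* ranged from -0.0338 to 0.72 for *ADAR* KO with IFN-β and from -0.30 to 0.44 for IFN-β with GFP sgRNAs, where *ATF6* ranged from -0.23 to 0.12. With ADAR sgRNAs *SDF2L1* ranged from -0.47 to 0.0387 and *CALR* from -0.11 to 0.0122. *HERPUD1* ranged from -0.0453 to 0.32 for the interaction, and *SDF2L1* from -0.055 to 0.27 across lines. Depth limited NCI-H196 most, since 1 read on GFP sg2 was worth 14.7 CPM.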
